A study of Mus musculus with 28 samples.

Results

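Transcripts of neutrophil granules and early myeloid cells were followed in yolk-sac macrophages (YSM) and in microglia from the embryonic to the adult mouse brain. A list of 10 gene symbols chose them: *Mpo*, *Prtn3*, *Elane*, *Ctsg*, *S100a8*, *S100a9*, *Ngp*, *Hp*, *Stfa1* and *Plac8*. The 10 are among 19057 genes with a symbol on the array, and were represented by 16 of the 45281 probes of the Illumina Mouse WG-6 version 2 array, and 9 of the 10 genes were among the 10630 genes detected often enough to be tested. All cells came from mice of the strain labelled C56BL/6 (C57BL/6j in the study's methods), kept specific-pathogen-free. The microglial columns are labelled WT, and the YSM columns carry a date in its place. Macrophages of the yolk sac at E10.5 (YSM) gave 4 arrays. Microglia of the brain gave 3 distinct arrays at each of E10.5, E12.5, E14.5 and E16.5, and 3 at each of E18.5, P0 (newborns) and Adult (aged 2 months). Of the 6 adult columns 3 repeated another adult column in every probe and were counted once, which left 25 arrays. By the study's account every array held sorted CD45low, CD11b+, F4/80+, CD64+ and Ly6C- cells pooled from several animals without regard to sex, so the spread between arrays, and each p-value, is that between pools. Adult brains also went through a density gradient. In such bulk samples, fewer cells of a type and less RNA per cell cannot be told apart.

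Neutrophils carry several kinds of granules, which are filled in sequence while the cell matures in a blood-forming organ. The primary or azurophil granules are made first, by promyelocytes, and hold myeloperoxidase (*Mpo*), which makes hypochlorous acid from hydrogen peroxide, and the serine proteases neutrophil elastase (*Elane*), proteinase 3 (*Prtn3*) and cathepsin G (*Ctsg*). The secondary granules follow, with proteins such as lactoferrin and the neutrophilic granule protein (*Ngp*). *S100a8* and *S100a9* encode the partners of calprotectin, a calcium- and zinc-binding complex that fills the cytosol of neutrophils. Haptoglobin (*Hp*) binds free haemoglobin and is made by liver and by maturing granulocytes, *Stfa1* encodes a stefin, a mouse inhibitor of cysteine proteases, and *Plac8* encodes a small cysteine-rich protein of myeloid cells and their progenitors. Yolk-sac haematopoiesis yields macrophages, which seed the brain as microglia, and also progenitors that can make granulocytes.

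All 14 measured microglia and macrophage markers were detected on all 25 arrays. Markers of other cells were detected as well, with 3 to 8 of 8 erythroid markers on every array and 3 of 5 neuron markers on every array from E12.5 to P0. Between 13224 and 17937 probes were detected per array, at a detection p under 0.01 against the negative controls of the same array. The background signal was 60.8 to 69.01 on YSM arrays and 101 to 144.9 on brain arrays, so array batch and tissue cannot be told apart between YSM and microglia. Markers of yolk-sac endoderm and liver were detected in number on 3 of the YSM arrays (13 or 14 of 15) and on E10.5 replicate 3 (8 of 15), against 4 on YSM replicate 1 and 2 on the other E10.5 arrays. Values below are log2 intensities after background correction and quantile normalization, on which the main probe of each of the 10 genes read at most 6.19 where they were not detected.

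The promoters of *Mpo*, *Prtn3*, *Elane* and *S100a8* are shown because they share a short run of letters. Each sequence runs from 250 bases before to 50 bases after the annotated start (RefSeq, mouse build GRCm38.p6), 5′ to 3′ on the gene's own strand, so that the start is base 251. Capitals mark matches, on either strand, to GAGGAAGT, a motif of the myeloid factor PU.1, and to CAACGG, a motif of the MYB family.
Mpo (chr11:87793534-87793833, + strand): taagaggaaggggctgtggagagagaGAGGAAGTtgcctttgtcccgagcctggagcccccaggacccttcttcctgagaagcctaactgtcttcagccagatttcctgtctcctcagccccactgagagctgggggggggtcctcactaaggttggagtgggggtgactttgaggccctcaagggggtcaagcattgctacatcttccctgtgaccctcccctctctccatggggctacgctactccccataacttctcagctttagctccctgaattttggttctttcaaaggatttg
Prtn3 (chr10:79879417-79879716, + strand): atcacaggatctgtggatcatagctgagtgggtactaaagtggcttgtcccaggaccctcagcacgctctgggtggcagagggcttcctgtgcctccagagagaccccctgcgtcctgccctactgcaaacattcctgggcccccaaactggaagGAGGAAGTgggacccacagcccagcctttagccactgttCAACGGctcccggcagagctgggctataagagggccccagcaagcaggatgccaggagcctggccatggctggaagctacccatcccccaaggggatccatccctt
Elane (chr10:79886062-79886361, + strand): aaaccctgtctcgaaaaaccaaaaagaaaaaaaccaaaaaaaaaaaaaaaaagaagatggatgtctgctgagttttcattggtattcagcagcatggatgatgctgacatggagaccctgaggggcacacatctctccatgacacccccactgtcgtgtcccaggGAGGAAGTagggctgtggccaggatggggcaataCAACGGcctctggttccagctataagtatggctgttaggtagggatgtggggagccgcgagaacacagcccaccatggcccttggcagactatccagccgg
S100a8 (chr3:90668821-90669120, + strand): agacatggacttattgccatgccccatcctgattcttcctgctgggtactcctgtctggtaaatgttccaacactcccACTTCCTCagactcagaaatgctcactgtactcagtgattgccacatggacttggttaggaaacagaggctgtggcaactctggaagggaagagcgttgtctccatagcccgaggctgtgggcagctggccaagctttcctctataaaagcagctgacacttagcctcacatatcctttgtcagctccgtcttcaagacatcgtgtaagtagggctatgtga
GAGGAAGT stood in the windows of *Mpo*, *Prtn3*, *Elane* and *S100a8*, 4 of the 9 genes with an entry, and was present in 3.2% of all 32851 promoter windows of this length. CAACGG stood in those of *Prtn3* and *Elane*, against 5.12% of all windows. *Prtn3* and *Elane* are neighbours on chromosome 10, and in both windows the first motif preceded the second, at 88 and 51 bases before the start in *Prtn3* and at 78 and 46 in *Elane*. A C/EBP motif, TTNNGCAA, was found in the windows of *Ngp*, *S100a9*, *Stfa1* and *Plac8*, against 10.8% of all windows. The motifs were picked after the sequences had been seen, and the matches describe letters only. No promoter entry was at hand for *Hp*.

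Among the azurophil genes *Mpo* and *Prtn3* were high in YSM and at E10.5, while *Ctsg* lay near background on most arrays. *Mpo* read 14.17 to 14.63 in YSM and 14, 12.74 and 14.45 at E10.5. It then read 11.95, 7.98 and 6.09 at E12.5 and 11.21, 4.57 and 4.51 at E14.5. From E16.5 on only E18.5 replicate 2 (6.13) and P0 replicate 1 (7.87) were detected, and adult arrays read 4.81, 4.59 and 5.06. The time course is therefore a uniformly high start, a mixed stage at E12.5 and E14.5, where replicate 1 stayed high and the others did not, and a floor with single exceptions.

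*Prtn3* followed the same course. It read 12.16 to 12.72 in YSM and 12.12 to 12.36 at E10.5, then 9.30, 6.70 and 5.80 at E12.5 and 8.63, 5.01 and 4.97 at E14.5. After E14.5 only P0 replicate 1 was detected, at 6.35, the array that also had the highest *Mpo* of its group. *Elane*, whose gene lies next to *Prtn3*, read 7.41 to 8.05 in YSM and 6.67 to 7.50 at E10.5, and was detected at E12.5 and E14.5 only on replicate 1 (6.12 and 6.47). *Ctsg* was detected on 4 arrays in all, namely YSM replicates 2 and 3 (6.00 and 7.17), E14.5 replicate 1 (7.44) and P0 replicate 1 (6.44). Levels of different genes cannot be ranked from these signals, since each probe binds with its own strength.

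The calprotectin genes moved together and varied more among the early arrays than *Mpo*, *Prtn3* and *Elane*. *S100a8* read 10.47, 11.44, 9.74 and 10.10 in YSM and 9.82, 9.27 and 11.66 at E10.5. At E12.5 it read 9.56, 4.61 and 4.71, and at E14.5 9.91, 5.24 and 4.93, so that replicate 1 of either stage was within the range of the E10.5 arrays and the others lay at background. *S100a9* gave the same picture, with 8.38 to 10.66 at E10.5, then 9.88, 4.57 and 4.43 at E12.5 and 9.61, 4.69 and 4.50 at E14.5. Later, both were detected on a single array, P0 replicate 2 (5.79 for *S100a8* and 6.02 for *S100a9*), which was not the P0 array with *Mpo*. *Ngp*, of the secondary granules, was detected on 0 of 25 arrays, with values of 4.58 to 5.15, and was not tested.

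**Figure D1:**
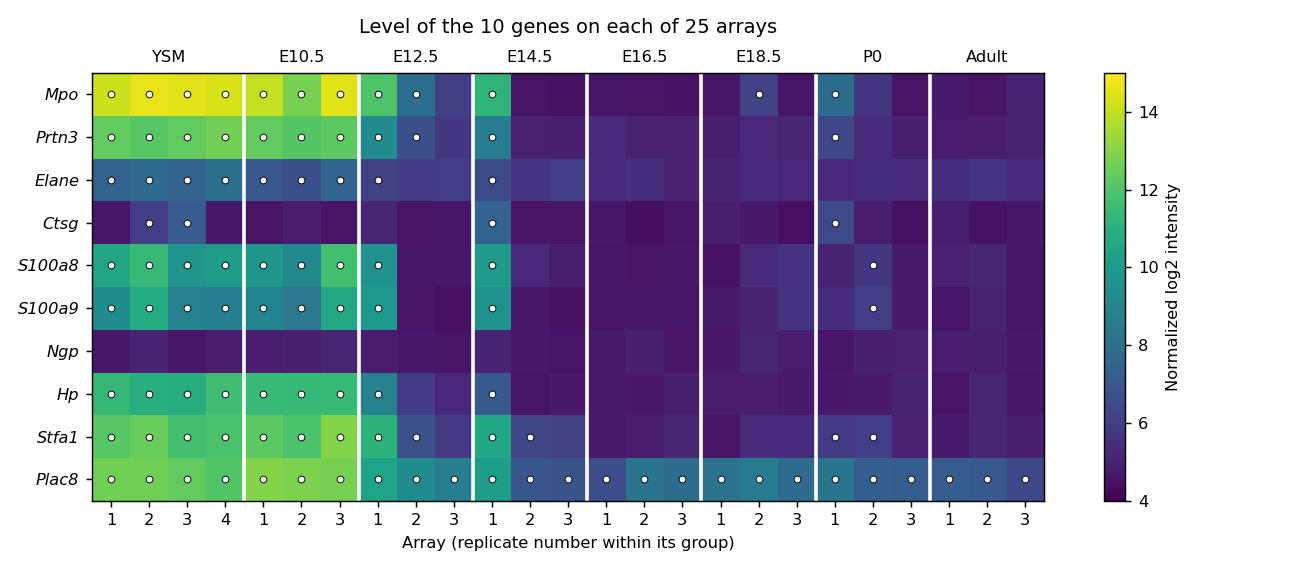
Normalized log2 intensity (colour) of the 10 genes (rows) on each of the 25 arrays (columns, replicate numbers within groups in order of age), with a white point where the gene was detected at p under 0.01. At least 8 genes were detected on every YSM and E10.5 array, 8 on E12.5 replicate 1 and 9 on E14.5 replicate 1, and *Plac8* on all 25 arrays.

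The remaining genes fell into a pair that reached background and *Plac8*, which did not. *Hp* was the most even gene of the list at E10.5 (11.45, 11.36 and 11.42) and read 8.82, 5.95 and 5.22 at E12.5 and 7.07, 4.63 and 4.74 at E14.5. From E16.5 it lay between 4.59 and 5.15 and was not detected. *Stfa1* read 12.24, 11.90 and 12.97 at E10.5, 11.10, 6.74 and 5.81 at E12.5 and 10.56, 6.30 and 6.19 at E14.5, and was detected again on P0 replicates 1 and 2 (5.85 and 6.02). Its second probe was also detected on 1 array at E18.5. *Stfa1* lies on chromosome 16 among near-identical stefin genes, so that its 2 probes may also take up transcripts of its relatives. *Plac8* was detected throughout, at 12.97, 12.81 and 12.76 at E10.5, 10.35, 9.32 and 8.72 at E12.5, 10.16, 6.96 and 6.80 at E14.5, 6.59 to 8.47 from E16.5 to P0 and 7.18, 7.03 and 6.37 in adults.

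**Figure D2:**
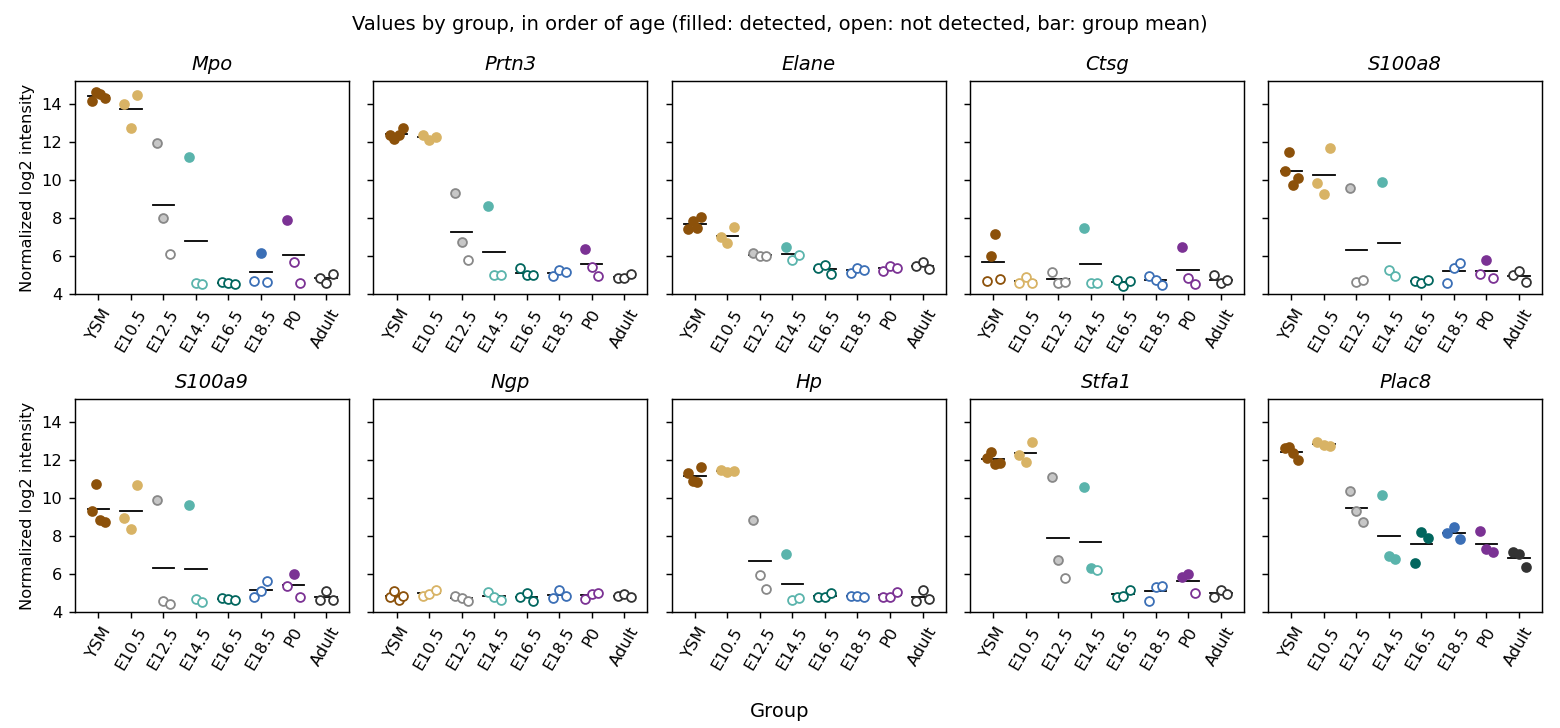
Normalized log2 intensity (vertical axis) of each gene in the 8 groups in order of age (horizontal axis), 1 point per array, filled where detected, with a bar at the group mean. At E12.5 and E14.5 most genes split into 1 high array and 2 low ones, while *Ngp* stayed between 4.58 and 5.15 on every array.

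Counted over arrays, with a gene taken as detected if any of its probes was, 8 to 9 of the 10 genes were detected on each YSM array and 8 on each E10.5 array. At E12.5 the number was 8, 4 and 1, at E14.5 9, 2 and 1, at E16.5 1 on every array, at E18.5 1, 2 and 2, at P0 5, 4 and 1, and in adults 1 on every array, that gene being *Plac8*. Apart from *Plac8*, the tested genes entered the fit through the arrays on which they were high, so that counts over them are descriptions. By the moderated F test across groups 8 of 9 differed (all but *Ctsg*, adjusted p = 0.48, limma with Benjamini-Hochberg adjustment), a share near the 91.0% of all genes tested.

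The first comparison asked whether the earliest brain cells differed from their yolk-sac counterparts, and the granule genes mostly gave no call. Of 9 genes only *Elane* fell, by 0.64 ± 0.20 (mean 7.05 at E10.5 and 7.69 in YSM, difference ± SE of the model, n = 3 and 4, limma, adjusted p = 0.027), while 9.51% of all genes fell. The groups of *Elane* overlapped. Its difference no longer passed when 1 of 4 arrays was left out, with -0.59 (adjusted p = 0.0607) for YSM replicate 2, -0.52 (0.0823) for YSM replicate 4, -0.61 (0.0925) for replicate 1 at E10.5 and -0.45 (0.175) for replicate 2 at E10.5. For the other genes the difference ran between -0.99 ± 0.60 for *Ctsg* and 0.42 ± 0.59 for *Plac8*. *Mpo* averaged 13.73 ± 0.89 at E10.5 and 14.41 ± 0.20 in YSM (SD), a difference of -0.68 ± 1.28. The standard errors of the other 8 genes were 0.59 to 1.28.

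The probes of *Hp* did not give the same answer here. The probe in the fit (ILMN_2944824) averaged 11.41 at E10.5 and 11.18 in YSM, a difference of 0.23 ± 0.59. The other probes averaged 9.35 at E10.5 against 8.25 in YSM (ILMN_2668510) and 9.05 against 7.77 (ILMN_2668509), and both rose when every probe was tested (1.10 ± 0.25, adjusted p = 0.00388, and 1.28 ± 0.35, adjusted p = 0.0121). All 3 probes fell at E12.5. The 4 probes of *Mpo* gave differences of -0.68 to -0.11 between E10.5 and YSM, none of them called, and the 2 probes of *Stfa1* gave 0.33 and 0.31.

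**Figure D3:**
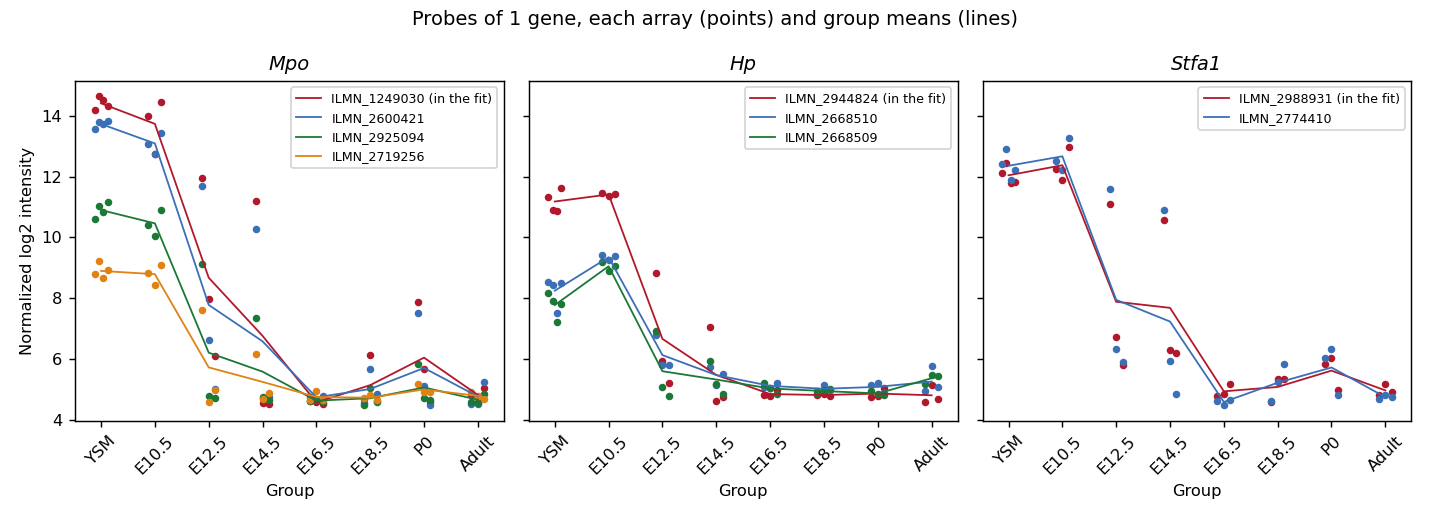
Normalized log2 intensity (vertical axis) of every probe of *Mpo* (4 probes), *Hp* (3) and *Stfa1* (2) in the 8 groups in order of age (horizontal axis), with points for arrays and lines through group means. All 9 probes turn down at E12.5, and ILMN_2668510 and ILMN_2668509 of *Hp* were higher at E10.5 than in YSM.

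Between E10.5 and E12.5, 7 of the 9 tested genes were among the 10 with the most negative fitted difference. Ranked in this way among 10630 genes, *Mpo* came 1st, *Prtn3* 2nd, *Hp* 3rd, *Stfa1* 4th, *S100a8* 5th, *Plac8* 7th and *S100a9* (not called) 10th, while *Elane* came 352nd and *Ctsg* 6286th. Apart from *Plac8*, these genes entered the fit through the arrays on which they were high. The list was also chosen with earlier results of these data known, so the ranks are descriptions and no test. *Mpo* averaged 8.67 ± 2.99 at E12.5 and 13.73 ± 0.89 at E10.5 (SD, n = 3 each) and fell by 5.06 ± 1.37 (SE, adjusted p = 0.00846). *Prtn3* averaged 7.27 ± 1.81 at E12.5 and 12.24 ± 0.12 at E10.5 and fell by 4.97 ± 0.75 (adjusted p = 6.30e-05). The differences were -4.74 ± 0.63 for *Hp* (adjusted p = 1.60e-05), -4.48 ± 1.01 for *Stfa1* (0.00225), -3.95 ± 1.12 for *S100a8* (0.0113), -3.38 ± 0.63 for *Plac8* (4.23e-04) and -1.03 ± 0.21 for *Elane* (0.00104). These falls correspond to a factor of 33.3 for *Mpo*, 31.4 for *Prtn3*, 10.4 for *Plac8* and 2.04 for *Elane* on the scale of the fit. Except for *Plac8*, the E12.5 means include arrays on which the gene was not detected, so these factors are not exact. For *Mpo* and *Prtn3* they also average unlike arrays.

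In all, 7 of 9 genes fell, while over all genes 16.2% fell. The median difference of the 9 genes was -3.95, against -0.01 over all genes. At the same step 11 of 14 microglia and macrophage markers rose (median 0.94), as did 3 of 3 tested neuron markers (median 1.87), and their part in the result was not tested. *S100a9* averaged 6.29 ± 3.11 at E12.5 and 9.33 ± 1.19 at E10.5, which did not pass (-3.04 ± 1.20, adjusted p = 0.0592), and *Ctsg* lay below background in both groups. The arrays of the 2 stages did not overlap in 6 of 9 genes, a share not far from the 51.3% of all genes, and the highest E12.5 array of *S100a8* and *S100a9* reached into the E10.5 range. *Mpo* did not pass once replicate 3 of E12.5 was left out (-3.76, adjusted p = 0.0612), nor did *S100a8* without E10.5 replicate 3 (-3.26, 0.0567), E12.5 replicate 2 (-3.12, 0.0695) or E12.5 replicate 3 (-3.16, 0.0655). By the test that the methods name, Tukey's test per gene on the authors' normalized values, 3 of the 9 genes fell. The same test called 752 of all 10630 genes lower.

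**Figure D4:**
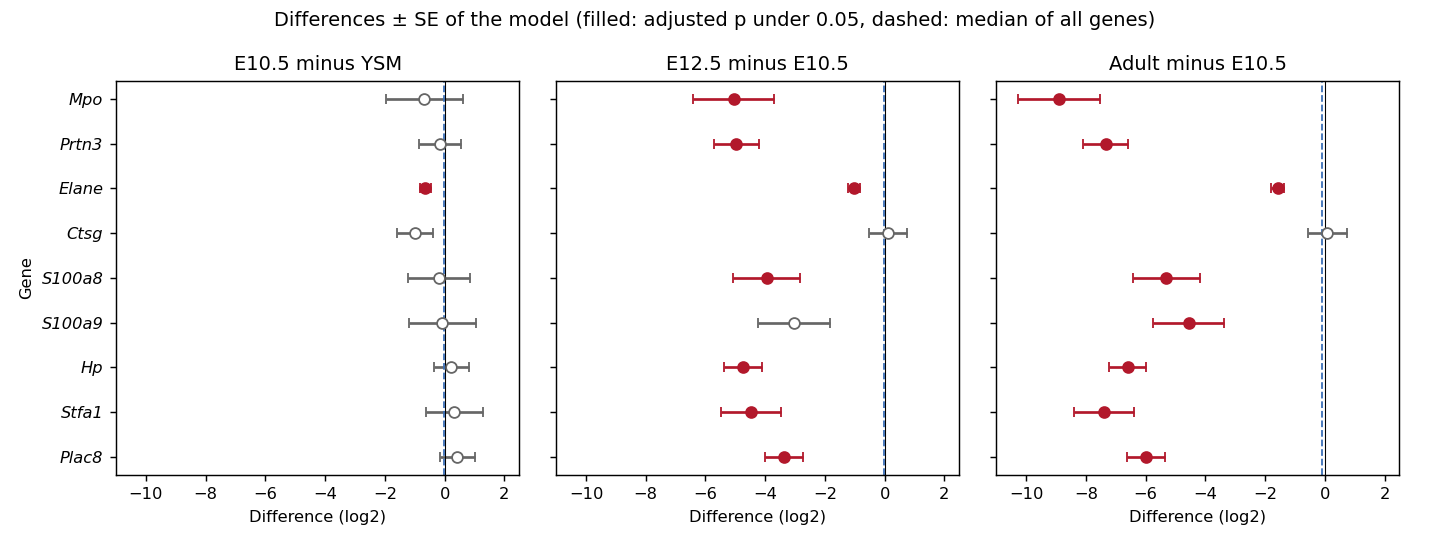
Difference in log2 intensity (horizontal axis, later minus earlier group, ± SE of the model) of the 9 tested genes (rows) in 3 comparisons that share the E10.5 arrays, filled where the adjusted p was under 0.05. The dashed line is the median of all genes, -0.03, -0.01 and -0.09 from left to right. *Elane* alone is called between E10.5 and YSM, 7 genes between E12.5 and E10.5, and 8 between Adult and E10.5.

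At E12.5 and E14.5 a single array of each stage stood above the others. E12.5 replicate 1 and E14.5 replicate 1 were the highest arrays of their groups for 9 of 9 genes, whereas they were highest for 35.0% and 41.8% of all genes. *S100a9* stood 5.31 above the next E12.5 array and 4.91 above the next E14.5 array, *S100a8* 4.85 and 4.66, *Stfa1* 4.36 and 4.25, and *Mpo* 3.97 and 6.64. *Elane* had the smallest gaps, 0.14 and 0.44. A gap of at least 2 log2 units on both arrays was found for 22 of 10630 genes (0.207%), and 6 of these were *Mpo*, *Prtn3*, *S100a8*, *S100a9*, *Hp* and *Stfa1*.

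The other genes with such gaps, named after their values were seen, included the eosinophil granule genes *Prg2* (major basic protein), *Prg3*, *Epx* (eosinophil peroxidase) and the eosinophil-associated ribonucleases *Ear3*, *Ear6* and *Ear10*. *Prg2* had the largest, with 14.39 on E12.5 replicate 1 against 4.71 on the other 2 arrays, and 13.88 on E14.5 replicate 1 against 4.81 and 4.63. It was not particular to these arrays, being detected on every YSM array (10.58 to 12.55) and every E10.5 array (8.56 to 11.72). It was also detected on E18.5 replicate 2 (8.19) and Adult replicate 3 (8.13). *Prg3* and *Ear3* were likewise detected on every YSM and E10.5 array. The stefin relatives *Cstdc4* and *Cstdc5*, the late granulocyte transcription factor *Cebpe* and the secondary granule gene *Pglyrp1* were among the genes with such gaps too. The rest were *Aqp9*, *Grm6*, *Itgb7*, *Rab44*, *Ccl21c* and *F5*. Like *Ear3*, *Ear6*, *Ear10*, *Cstdc4* and *Cstdc5*, they stood on none of the lists used here. *Grm6* read 8.49 on E12.5 replicate 1 and 7.97 on E14.5 replicate 1 and was not detected on any YSM or E10.5 array. Of the 11 measured mast cell, basophil and eosinophil markers 7 were detected on E12.5 replicate 1, 7 on E14.5 replicate 1, 7 on P0 replicate 1 and 7 on E18.5 replicate 2, and between 0 and 5 on each of the other 21 arrays. Their summed linear intensity ranged from 3808 to 11330 in YSM, 1642 to 7510 at E10.5, 1264 to 31712 at E12.5, 344 to 19521 at E14.5, 510 to 994 at E16.5, 331 to 3500 at E18.5, 655 to 5626 at P0 and 322 to 890 in adults, and their part in the granule result was not tested. Of the 7 measured neutrophil surface and late markers 4 were detected on E12.5 replicate 1 and 5 on E14.5 replicate 1, against 2 on each of the other arrays of these stages. The detected ones included cathelicidin (*Camp*, 6.55 and 6.39) and lactoferrin (*Ltf*, 6.55 and 6.14), just above background.

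The fall at E12.5 was also measured without these arrays. Without both of them, an exclusion chosen after seeing the data, 8 of 9 genes fell between E10.5 and E12.5, and *Mpo* fell by 6.69. *S100a9* was now among them (-4.84), with neither remaining E12.5 array above background. Leaving out the E12.5 array on which these genes were highest deepens their fall by construction, so these calls are descriptions only. Over all genes, 1471 of 10608 fell at this step without E12.5 replicate 1 alone, and 1724 of 10605 without E14.5 replicate 1 alone. *S100a9* was also called without either array alone (-4.84 without E12.5 replicate 1 and -3.04 without E14.5 replicate 1). The latter was also the difference with all arrays, and why the call changed was not tested.

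**Figure D5:**
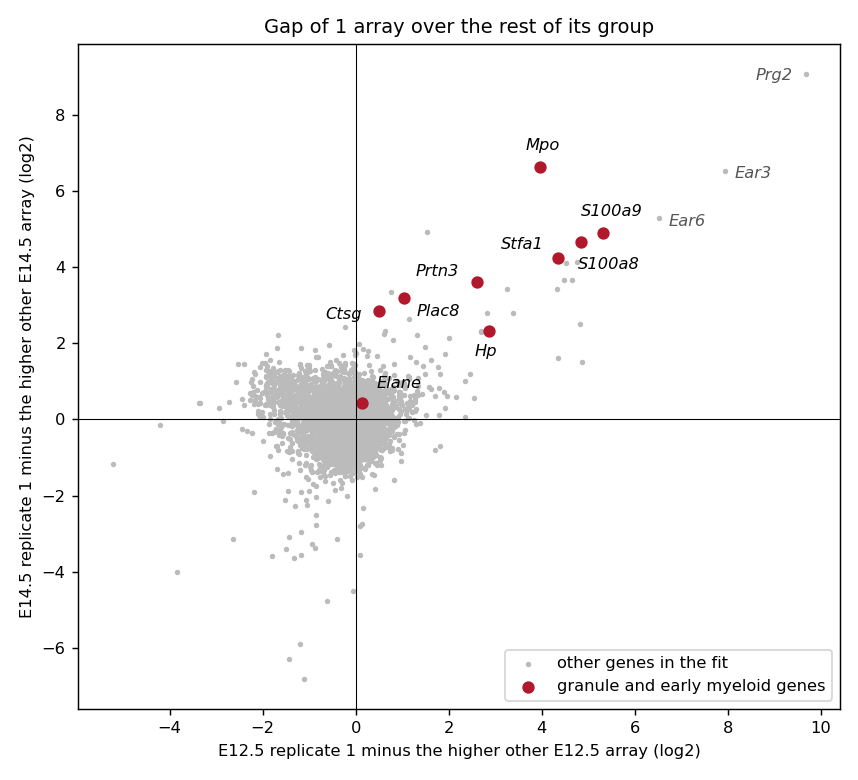
For each of the 10630 genes, the log2 gap of E12.5 replicate 1 over the higher other E12.5 array (horizontal axis) against the gap of E14.5 replicate 1 over the higher other E14.5 array (vertical axis). Of the 9 granule and early myeloid genes (red), all lie above 0 on both axes and 6 lie at 2 or more, and the eosinophil genes *Prg2*, *Ear3* and *Ear6* lie beyond most of them.

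After E12.5 few of the genes were called from stage to stage. Between E14.5 and E12.5 the count was 0 of the 9 by limma and 0 of the 9 by the methods' Tukey test, while limma called 1.38% of all genes. At an unadjusted p under 0.05, 1 of the 9 passed. That gene was *Plac8*, at 7.97 ± 1.89 at E14.5 and 9.47 ± 0.83 at E12.5 (-1.49 ± 0.63, adjusted p = 0.255), and it fell by 2.59 once E14.5 replicate 1 was left out (adjusted p = 0.00755). Between E16.5 and E14.5, 2 genes fell and none rose, while 20.0% of all genes fell. The difference was negative in 9 of the 9 genes at this step, with a median of -1.09 against -0.08 over all genes. E14.5 replicate 1 was the highest E14.5 array for 9 of 9 genes, so the signs share 1 array and are a description only. The other E14.5 arrays read 4.57 and 4.51 for *Mpo*, against a mean of 4.57 at E16.5, but 6.30 and 6.19 for *Stfa1*, against 4.94. *Elane* averaged 5.31 ± 0.26 at E16.5 and 6.09 ± 0.36 at E14.5 (at least 1.18-fold lower, adjusted p = 0.00831), with the call lost without E16.5 replicate 3 (-0.63, 0.0505). *Stfa1* averaged 4.94 ± 0.20 at E16.5 and 7.69 ± 2.49 at E14.5 (at least 3.57-fold lower, adjusted p = 0.0422), with the call lost without any of 13 single arrays and a difference of -1.31 without E14.5 replicate 1 (adjusted p = 0.277). Such bounds set a group that lay wholly below background at the lowest detected signal of its arrays. *Mpo*, *S100a8* and *S100a9* differed by -2.19, -2.04 and -1.60 at this step without passing, each with 1 detected array at E14.5 and none at E16.5.

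From E16.5 to adulthood no gene of the list was called in any step. Between E18.5 and E16.5, P0 and E18.5, and Adult and P0 the count was 0 of 9 by limma, 0 by the Tukey test and 0 at an unadjusted p under 0.05, while 2.32%, 0.0564% and 51.1% of all genes were called. Only *Plac8* was above background on all arrays of these stages, at 8.15 ± 0.30 at E18.5 and 7.58 ± 0.87 at E16.5, then 7.58 ± 0.60 at P0, and 6.86 ± 0.43 in adults (SD). At P0 the arrays carried different parts of the list, since replicate 1 had *Mpo*, *Prtn3*, *Ctsg* and *Stfa1*, replicate 2 had *S100a8*, *S100a9* and *Stfa1*, and replicate 3 had none of these, while *Plac8* was on all 3. *Prg2* read 11.92 on P0 replicate 1, 6.19 on replicate 2 and 4.76 on replicate 3.

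Across the whole brain series, adult microglia against E10.5, 8 of 9 genes fell, against 35.6% of all genes. In the same 8 genes the groups did not overlap, which held for 70.2% of all genes. *Mpo* was at least 192-fold lower in adults (4.82 ± 0.23, against 13.73 ± 0.89 at E10.5, adjusted p = 8.39e-06). The other bounds were at least 74.6-fold for *Stfa1*, 68.4-fold for *Prtn3*, 38.4-fold for *Hp*, 17.2-fold for *S100a8*, 9.11-fold for *S100a9* and 1.87-fold for *Elane*, with adjusted p from 1.03e-08 for *Hp* to 0.00216 for *S100a9*. *Plac8*, measured in both groups, averaged 6.86 ± 0.43 in adults and 12.85 ± 0.11 at E10.5 and fell by 5.99 ± 0.63 (adjusted p = 4.21e-08), a factor of 63.5. These calls were the same without any single array. *Ctsg* lay below background in both groups and did not pass, and *Ngp* was not tested. Over the same span 14 of 14 microglia and macrophage markers rose (median 1.84), and their part in the result was not tested.

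Granule genes outside the list were counted in the same comparisons, in which 16.2% of all genes fell at E12.5 (median -0.01) and 35.6% fell between E10.5 and adulthood (median -0.09). Of 11 tested genes of the primary granule and its processing 2 fell and 1 rose at E12.5 (median -0.05), and 6 were lower and 1 higher in adults (median -0.58). Those that fell were *Ms4a3*, a membrane gene of granulocyte and monocyte progenitors (5.19 at E12.5 and 8.03 at E10.5, -2.84 ± 0.36), and *Serpinb1a*, an inhibitor of neutrophil serine proteases (-1.97 ± 0.25), while *Cd63*, of lysosome and granule membranes, rose by 1.08 ± 0.14. Cathepsin C (*Ctsc*), which activates the granule proteases, fell at the later step, with 13.68 at E16.5 and 14.66 at E14.5 (-0.98 ± 0.15, adjusted p = 2.01e-04). Of 10 tested genes of secondary and tertiary granules 2 fell at E12.5, the protease inhibitor *Slpi* (-2.33 ± 0.47) and the leukotriene receptor *Ltb4r1* (-1.56 ± 0.37), and 1 rose (*Cybb*, 1.13 ± 0.34, not above background at E10.5), with a median of -0.51. In adults 3 of the 10 were lower and 1 higher (median -0.69). Of 13 genes of mature neutrophils 2 fell at E12.5, *S100a6* (-1.88 ± 0.35) and the chemokine receptor *Cxcr2* (-0.91 ± 0.27), and the median was -0.42. In adults 6 of the 13 were lower and 2 higher (median -1.12).

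*Cxcr2* and the receptor for granulocyte colony-stimulating factor, *Csf3r*, rose at a later step. Between E16.5 and E14.5 the differences were 0.98 ± 0.27 and 1.62 ± 0.21. In adults *Csf3r* averaged 12.94, against 10.27 at E10.5 (2.67 ± 0.21), while *Cxcr2* was below background in adults and averaged 8.05 at E10.5. Among the transcription factors of the myeloid lineage 2 of 12 fell at E12.5, a share near the 16.2% of all genes, namely *Cebpe* (6.03 at E12.5 and 7.90 at E10.5, -1.87 ± 0.59) and *Spi1*, which encodes PU.1 (-0.63 ± 0.17). By adulthood 6 of the 12 were lower than at E10.5, while 35.6% of all genes were. Among them were *Gata2* (-2.79 ± 0.79), detected on 1 adult array, and *Cebpe*, not above background on any adult array. In adults 4 of the 12 were higher, while over all genes 3256 of 10630 were. The 4 were led by *Cebpa* (2.82 ± 0.34, not above background at E10.5) and *Klf4* (1.96 ± 0.63). Of the 3 tested genes of the stefin list, which did not hold *Cstdc4* and *Cstdc5*, 1 fell and 1 rose at E12.5 (median -0.78) and 3 were lower in adults (median -1.5). Of these, *Csta2*, fell between the tissues, at 5.74 at E10.5, where it was not above background, and 7.97 in YSM (-2.24 ± 0.15, adjusted p = 2.21e-08), where *Stfa1* did not pass.

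Within groups most of the granule genes varied together across arrays. Over the 25 arrays, after the group means were taken off, *S100a8* and *S100a9* correlated at r = 0.99, *Mpo* and *Prtn3* at 0.97 and *S100a9* and *Stfa1* at 0.97. Among the 21 pairs without *Elane* and *Ctsg* the values ran from 0.69 to 0.99. Pairs with *Elane*, near background on most arrays, reached 0.10 to 0.56, and pairs with *Ctsg*, detected on 4 arrays, 0.10 to 0.69. These are descriptions, since all points share the array and its normalization and E12.5 replicate 1 and E14.5 replicate 1 lie far from the rest.

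The genes outside the list with the pattern closest to *Mpo* over the 25 arrays were the haematopoietic transcription factor *Nfe2* (Pearson's r = 0.982, Spearman's rho = 0.855), *Cstdc5* (0.965 and 0.795), *Ltb4r1* (0.962 and 0.711), *Rab44* (0.960 and 0.902) and *Cebpe* (0.957 and 0.775). Closest to *S100a8* were *Cstdc5* and *Cstdc4* (r = 0.990 each), *Cebpe* (0.972), *Ltb4r1* (0.955) and *Rab44* (0.952). For *Stfa1* they were *Cstdc5* (0.976), *Nfe2* (0.971), *Ltb4r1* (0.966), *Cstdc4* (0.965) and *Gapt* (0.963). After the group means were taken off, these values ran from 0.79 (*Gapt* with *Stfa1*) to 0.98 (*Cstdc4* with *S100a8*). *Mpo*, *S100a8* and *Stfa1* correlated with each other at 0.96 to 0.98 over the same arrays. That the same few genes recur beside each of them follows from this and is no separate result. *Cstdc4* and *Cstdc5* lie with *Stfa1* in the stefin cluster.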

How the data were processed

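GenomeStudio, used by the authors, gave the signal of each probe, which was deposited as a linear intensity that had not been normalized. The authors deposited a detection p-value with each signal. The 56 columns of bead errors and bead numbers were not used. For both tools the version is not given in the sources used here. The authors also deposited intensity values that they quantile-normalized with lumi, which served as an alternative.

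Signals were background-corrected and quantile-normalized with limma's neqc (offset 16, negative controls inferred from the detection p-values) and taken as log2. A probe was kept if it had 1 symbol and was detected (p under 0.01) on 3 or more arrays, and each gene was represented by its probe of highest mean. Of 45281 probes 34885 had 1 symbol, 18 several and 10378 none. The 25 distinct arrays were fitted together with 8 group means by lmFit and eBayes of limma 3.58.1 (R 4.3.3), which left 17 residual degrees of freedom, with Benjamini-Hochberg adjustment over 10630 genes and a call at an adjusted p under 0.05. Precision is limited by how many arrays there are. Over genes, the median standard error was 0.188 to 0.201 depending on the comparison. The fit was tested on simulated data.

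Microglial columns of the signal table match the groups but no single sample, so replicate numbers only name arrays. Differences are later minus earlier stage, or brain minus yolk sac. An at-least fold compares the brighter group's mean with the mean, over the dim group's arrays, of the lowest detected value or the gene's own value if higher. The rule for named genes covered the 10 genes in every comparison, given as counts where none passed, from other lists up to 4 called genes with the largest difference, and the 5 genes most like *Mpo*, *S100a8* and *Stfa1*. The genes and lists were chosen with earlier results of these data known. Alternatives covered background correction, scaling, the authors' values, the detection filter, probes tested singly, the methods' analysis of variance with Tukey's test, the replicate number as a block, the YSM arrays, the repeated adult columns and each single array.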

Additional observations from a re-analysis of the deposited data

How the results depend on the processing

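Between Adult and E10.5, 7 to 8 of the 9 genes fell under every alternative, and no direction reversed in any result tested. Left-out single arrays gave 5 to 8 falling genes between E12.5 and E10.5, 8 to 8 between Adult and E10.5, 0 to 1 called between E10.5 and YSM and between E14.5 and E12.5, and 0 to 2 between E16.5 and E14.5. The count between E12.5 and E10.5 was 7 and became 3 by the methods' Tukey test, by which 752 of all 10630 genes fell. Between E10.5 and YSM it was 1 and became 0 with 75th percentile scaling or the Tukey test and 2 with every probe tested. Between E16.5 and E14.5 it was 2 and became 0 without background correction, with the authors' values or with the Tukey test, 1 with the other normexp fit, without the detection filter or without the YSM arrays, and 4 with 75th percentile scaling. With that scaling 3191 of all 10630 genes fell at this step (median -0.29), against 2121 in the main fit (median -0.08). Without E12.5 replicate 1 and E14.5 replicate 1 together, an exclusion chosen after seeing the data, the count of granule genes at this step was 1. The count was then also 1 between E14.5 and E12.5 (*Plac8*) and between Adult and P0 (*Prtn3*, -0.66, adjusted p = 0.0478). *S100a9* was called at E12.5 with 75th percentile scaling or all 6 adult columns (adjusted p = 0.0406 each). The cause was not tested.

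Over all genes, the Tukey test called 398 genes in place of 2079 between E10.5 and YSM, 1305 in place of 3262 between E12.5 and E10.5, 976 in place of 3495 between E16.5 and E14.5 and 3056 in place of 5433 between Adult and P0. Every probe tested gave 3632 and, between Adult and E10.5, 10907 in place of 7045. The first count was 1264 without YSM replicate 3, 1241 without replicate 1 of E10.5 and 1339 without replicate 2 of E10.5. Between E14.5 and E12.5 the count of 147 ranged from 10 (Tukey test) to 340 (replicate block), between E18.5 and E16.5 that of 247 went down to 14 (Tukey test), and between P0 and E18.5 that of 6 from 1 to 24 (without P0 replicate 1).

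The labels' replicate numbers did not pair the samples. Of 77 same-numbered pairs of different groups 15 correlated over 0.1 in their deviations, with a median r of -0.01, and 2 of 25 samples correlated best with their own number. With the number as a block on the authors' values 1 gene fell between E16.5 and E14.5, against 0 with no block, and no other count of granule genes moved by over 1.5 times. Signal over background is the limit for the dim genes, since *Ngp* and, outside 4 arrays, *Ctsg* could not be measured.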
